A study of Mus musculus with 24 samples.

Results

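The ends of the mutant maxilla (upper jaw), distal and proximal, were compared in 6 arrays, 3 from each end, out of 24 arrays of embryonic mouse jaws. The arrays were chosen by their labels alone, as those of mutant maxilla pieces. All embryos were C57B6 mice at embryonic day 14.5 from a cross of Wnt1cre;Tgfbr2fl/+ with Tgfbr2fl/fl mice, so that every embryo carried at least 1 floxed allele of Tgfbr2, the gene of the type II TGF-beta receptor. Mutants were recognised by their cleft palate and skull vault defect, and control littermates are described no further in the labels. Wnt1cre drives recombination in neural crest cells and their descendants, so muscle fibres, surface epithelium, blood and endothelium of a mutant keep the floxed gene intact. The 6 control maxilla arrays (3 distal, 3 proximal) and the 6 mutant mandible arrays (3 distal, 3 proximal) are used below for comparison. The labels call the pieces bone, and they do not say whether the 3 arrays of a group are embryos, litters or pools. The p-values therefore measure only how far these samples scatter, and that scatter may be technical. Sex-linked genes, given below, show only that the control distal maxilla arrays were not repeats of 1 sample.

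The skeleton and connective tissue of the upper jaw derive from cranial neural crest, while its muscle derives from mesoderm and its epithelium from ectoderm. Position along the jaw is recorded by transcription factors: Msx, Alx and Pax3 genes are known for the front of the face, and Barx1 for its more proximal, molar-forming part. Signals of the BMP, Wnt, hedgehog and TGF-beta families pattern this mesenchyme and direct its bone formation. At this stage membranous bone is forming in the maxilla, vibrissa follicles grow in the snout skin, and the nasal cavity with its cartilage capsule lies close above the jaw.

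Values are RMA log2 values of 1 probe set per gene, and the values of an end are given in the order of arrays 1, 2 and 3. Differences are distal minus proximal on the log2 scale, ± the standard error of a limma fit to all 24 arrays with n = 3 arrays an end, and adjusted p-values are limma's after Benjamini-Hochberg adjustment over 12811 genes, with a threshold of 0.05. A log2 difference understates the change of a dim gene, since values near the bottom of the range, which began at 3.44, are mostly background. In a whole piece of tissue, fewer cells of a type and less RNA per cell cannot be told apart.

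Before any comparison, the library labelled mutant distal maxilla 1 stood apart from the other distal arrays. Over the 12811 genes it differed from proximal array 1 by a root mean square of 0.226 and from distal arrays 2 and 3 by 0.584 and 0.555. Distal arrays 2 and 3 differed from each other by 0.284, and distal array 2 was nearer to control distal maxilla 2 (0.206) than to any other mutant array. Proximal arrays 1 and 2 differed by 0.244, while proximal array 3 was nearest to control proximal maxilla 3 (0.320). The pooled SD within a group was 0.349 for the mutant distal and 0.341 for the mutant proximal maxilla, against 0.183 to 0.235 in the other 6 groups. Results are therefore given with and without distal array 1. That array was singled out from these same values, and since it lay near the proximal arrays, leaving it out tends to widen the gap between the ends. Counts and p-values without it are therefore descriptive and likely too favourable.

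**Figure D1:**
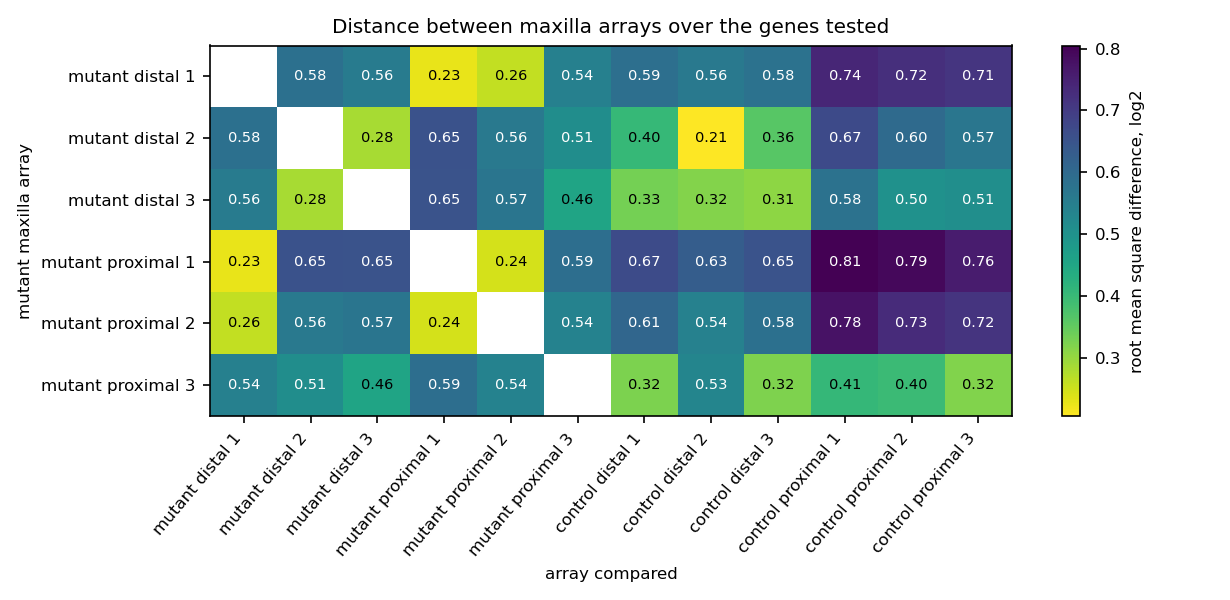
Root mean square log2 difference between each mutant maxilla array (rows) and the 12 maxilla arrays (columns) over the genes tested, with darker cells for larger differences and blank cells for an array against itself. Mutant distal 1 is closest to mutant proximal 1 (0.23), and mutant distal 2 to control distal 2 (0.21).

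The patterning genes Hoxd1, Barx1 and Alx1 showed the same grouping. Hoxd1, a homeobox gene, read 8.55, 4.39 and 4.43 in the distal arrays and 8.73, 8.62 and 7.72 in the proximal arrays. Barx1 read 10.56, 7.41 and 8.41 in the distal and 10.83, 11.04 and 10.06 in the proximal arrays. Alx1, a gene of the frontonasal mesenchyme, read 10.82, 12.83 and 13.04 in the distal and 10.57, 10.55 and 11.70 in the proximal arrays. For each of the 3 genes distal array 1 lay close to the proximal arrays and far from the other distal arrays. Between the ends of the control maxilla Barx1 differed by -1.96 (adjusted p = 0.0367), while Hoxd1 (0.67, adjusted p = 0.682) and Alx1 (0.89, adjusted p = 0.301) did not pass. Other genes did not share this grouping: for Msx1, Omd and Alpl, given below, distal array 1 lay above every proximal array. Tgfbr2 read 12.51, 12.20 and 12.16 in the distal and 12.56, 12.47 and 12.16 in the proximal arrays, a difference of -0.11 ± 0.09 (adjusted p = 0.808), and 11.52 to 11.91 in the control maxilla. The sources used here do not give the deleted part of Tgfbr2, so this probe set does not check the genotype labels. Xist, the RNA of the inactive X chromosome, read 12.90 to 13.26 in all 6 mutant maxilla arrays. The Y-linked Eif2s3y read 8.13 to 9.41 in them, between the 7.47 of the lowest and the 10.22 of the highest control array. Whether these arrays were pools of both sexes was not tested. In the control distal maxilla Xist read 13.43, 12.97 and 6.66, so those arrays were not repeats of 1 sample.

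The pieces also differed in tissue content, as shown by the mean of each marker list in each array, centred on the 24 arrays. The 16 tested nasal and olfactory epithelium markers averaged -0.50, 0.90 and 1.14 in the distal and -1.21, -1.06 and 1.60 in the proximal arrays. The 26 tested cartilage genes averaged -2.04, 0.44 and 0.48 in the distal and -2.15, -2.31 and 0.59 in the proximal arrays. Distal array 1 and proximal arrays 1 and 2 were thus low in both, and distal arrays 2 and 3 and proximal array 3 high. Muscle contractile genes ran the other way, at 1.10, -2.31 and -1.74 in the distal and 1.91, 0.79 and -0.24 in the proximal arrays. Every control maxilla array was high in nasal markers (0.51 to 2.31) and low in muscle (-2.18 to -0.66). The part of these differences in the results below was not tested beyond the settings named.

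**Figure D2:**
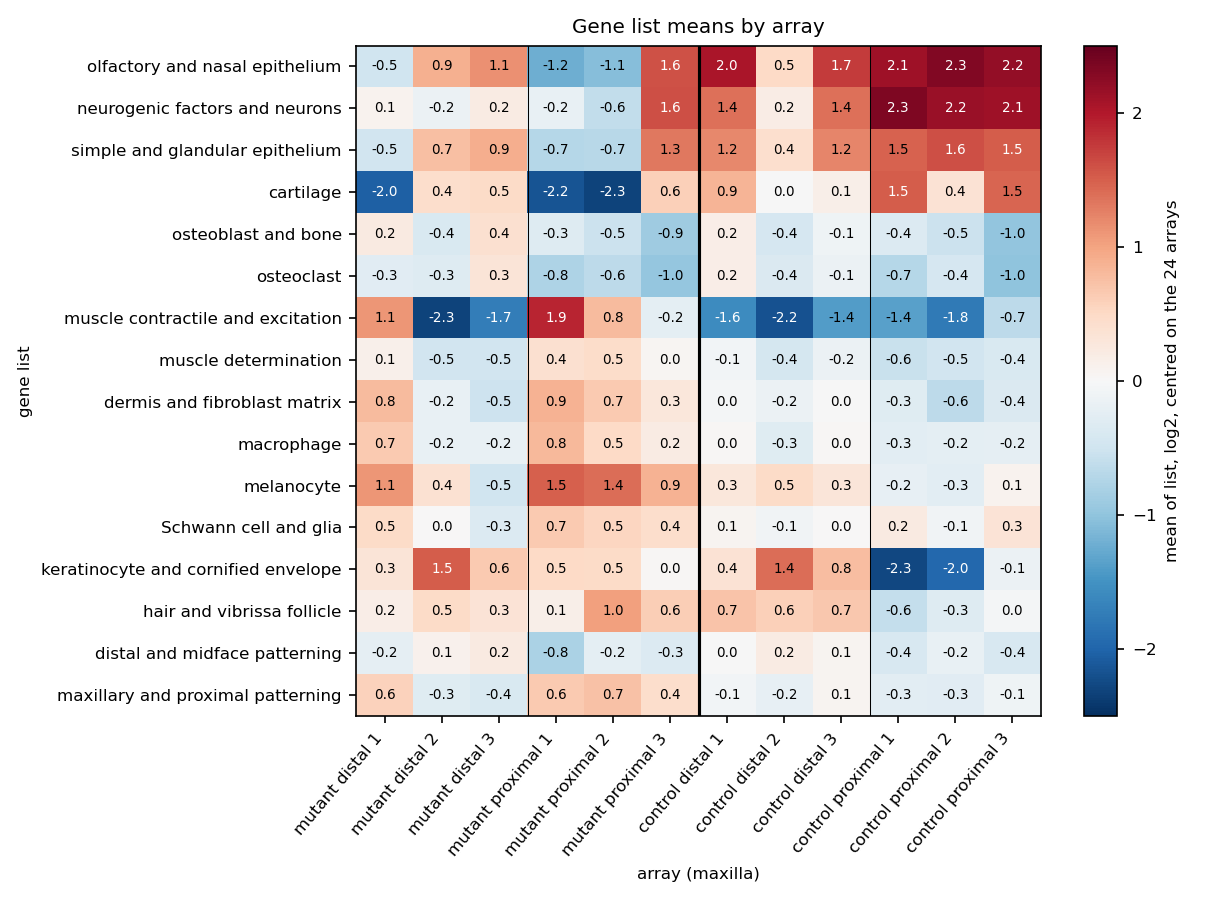
Mean of 16 gene lists (rows) in the 6 mutant and 6 control maxilla arrays (columns), in log2 units centred on the mean of all 24 arrays, red above and blue below it. Mutant distal 1 and mutant proximal 1 and 2 share low nasal and cartilage means (-2.0 to -2.3 for cartilage) and high muscle means.

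With all 6 arrays, 49 of 12811 genes passed the threshold (0.382%), 37 higher at the distal end (0.289%) and 12 lower (0.0937%). For 48 of the 49 the values of the ends did not overlap, which held for 1009 of all genes tested (7.88%; 531 higher, 4.14%, and 478 lower, 3.73%), and the exception was Tnfrsf11b. Without distal array 1 the count was 1122 (8.76%), with 512 higher (4%) and 610 lower (4.76%), and all 49 were among them. The count was 8 without distal array 2, 2 without distal array 3, and 9, 17 and 96 without proximal arrays 1, 2 and 3. A fit to the 6 arrays alone called 0 genes with limma, with 554 at an unadjusted p under 0.05 (1409 in the 24-array fit). The 24-array fit shares its spread with quieter groups and also has more residual degrees of freedom. The median standard error was 0.106 in it and 0.11 in the fit to 6 arrays. The part of each in the loss of calls was not tested. In 41 of the 49 genes distal array 1 was the distal array nearest the proximal mean, against 53.4% of all genes tested.

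The largest rise was in Mmp13. This gene, which encodes a collagenase of hypertrophic cartilage and of bone-forming cells, read 8.31, 10.52 and 12.16 in the distal arrays and 5.49, 5.63 and 4.52 in the proximal arrays. Distal array 3 was brightest and distal array 1 dimmest of the distal arrays, and the ends did not overlap. The difference was 5.12 ± 0.88 (adjusted p = 0.024), and 6.13 without distal array 1. The proximal arrays were dim, so no fold is given. Its promoter is shown because it belongs to the gene with the largest difference. It is the RefSeq window of 250 bases before to 50 after the annotated start on GRCm38.p6, chr9:7272264-7272563, plus strand. Capitals mark matches, on either strand, to the AP-1 motif spelled TGACTCA, to the RUNX motif spelled TGTGGT, to the TATA box spelled TATAAA, to the FOX motif spelled TGTTTA or to the homeodomain motif spelled TAATTA, and no matches overlap in the windows shown.
Mmp13: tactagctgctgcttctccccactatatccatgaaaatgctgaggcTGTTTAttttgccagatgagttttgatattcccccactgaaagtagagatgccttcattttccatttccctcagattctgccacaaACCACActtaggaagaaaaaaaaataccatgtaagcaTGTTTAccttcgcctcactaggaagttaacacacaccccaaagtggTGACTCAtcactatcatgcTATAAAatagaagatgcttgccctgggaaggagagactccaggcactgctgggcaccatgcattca
The AP-1 match begins 35 bases before the start and the RUNX match, on the minus strand, 118 bases before it. Of 27025 mouse windows of this length, 5.17% hold the AP-1 motif, 16.9% the RUNX motif, 14.2% the TATA box, 13.4% the FOX motif and 5.31% the homeodomain motif. A match describes the letters and does not show binding.

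Of 17 tested osteoblast and bone genes, 2 rose and none fell, with a list median of 0.87 against 0.002 over all genes tested. Omd, which encodes osteomodulin, a proteoglycan of mineralising matrix, read 10.70, 10.43 and 11.54 in the distal and 9.45, 9.47 and 8.83 in the proximal arrays. Alpl, the phosphatase that permits mineral deposition, read 11.40, 11.09 and 12.03 against 10.41, 10.30 and 10.12. In both genes every distal array was above every proximal one, and distal array 1 was not the lowest of the distal arrays. The differences were 1.64 ± 0.25 for Omd (adjusted p = 0.0138) and 1.23 ± 0.20 for Alpl (adjusted p = 0.0199). Sp7, the transcription factor that commits cells to the osteoblast lineage, differed by 0.87 ± 0.22 and missed the threshold (adjusted p = 0.113), as did the osteocyte gene Dmp1 (1.60 ± 0.54, adjusted p = 0.216). Col1a1, the main bone collagen, differed by 0.04 ± 0.31 (adjusted p = 0.995).

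Of 8 tested osteoclast-related genes, 2 rose, and their list median was 0.69. Mmp9, a gelatinase abundant in osteoclasts, read 10.27, 10.02 and 10.94 in the distal and 9.30, 8.97 and 8.80 in the proximal arrays (1.39 ± 0.30, adjusted p = 0.0495). Tnfrsf11b, whose product osteoprotegerin is a decoy that blocks osteoclast formation, read 6.63, 8.12 and 8.48 against 5.63, 6.16 and 6.64 (1.60 ± 0.32, adjusted p = 0.0336). Distal array 1 lay just below proximal array 3 for Tnfrsf11b, the single overlap among the genes called. Acp5 and Ctsk, enzymes of mature osteoclasts, differed by 0.87 ± 0.42 (adjusted p = 0.472) and 0.25 ± 0.21 (adjusted p = 0.828).

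Among transcription factors, Foxf1, Foxf2 and Msx1 rose. Foxf1 and Foxf2, forkhead genes known as hedgehog targets in facial mesenchyme, are needed for normal face and palate development. Foxf1 read 8.85, 9.24 and 10.72 in the distal and 6.89, 8.43 and 6.36 in the proximal arrays, and Foxf2 read 7.94, 7.61 and 9.12 against 5.79, 6.54 and 5.66. Distal array 3 was highest and proximal array 2 the highest of its end for both. The differences were 2.38 ± 0.50 for Foxf1 (adjusted p = 0.0435) and 2.22 ± 0.37 for Foxf2 (adjusted p = 0.0237). A dimmer probe set of Foxf1 differed by 1.05, and a dim one of Foxf2, at means of 4.56 and 4.46, by 0.10. Foxf1 and Foxf2 were the 2 of 18 tested hedgehog pathway genes that passed. Ptch1, the hedgehog receptor and target, differed by 0.44 ± 0.12 (adjusted p = 0.137), and the ligand gene Shh, at 9.61, 10.06 and 11.05 against 8.47, 10.39 and 8.64, overlapped between the ends (1.08 ± 0.47, adjusted p = 0.398).

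Msx1, a homeobox gene of distal jaw mesenchyme and tooth buds whose loss causes cleft palate, read 11.46, 12.53 and 12.62 in the distal and 10.12, 11.26 and 10.14 in the proximal arrays. Every distal value was above the highest proximal value, narrowly so in distal array 1. The difference was 1.70 ± 0.31 (adjusted p = 0.024), and a dimmer probe set gave 1.62. Its relative Msx2 differed by 1.95 ± 0.44 and missed the threshold (adjusted p = 0.0675), but passed without distal array 1 (2.54, adjusted p = 0.000597). Of the 15 tested genes of the distal and midface patterning list, 1 rose with all arrays, and without distal array 1 Msx1, Msx2, Alx1, Six2 and Prrx2 rose while Lhx6 and Hand2 fell. Alx1 gave 1.29 ± 0.48 with all arrays (adjusted p = 0.271) and 1.99 without distal array 1 (adjusted p = 0.0039).

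**Figure D3:**
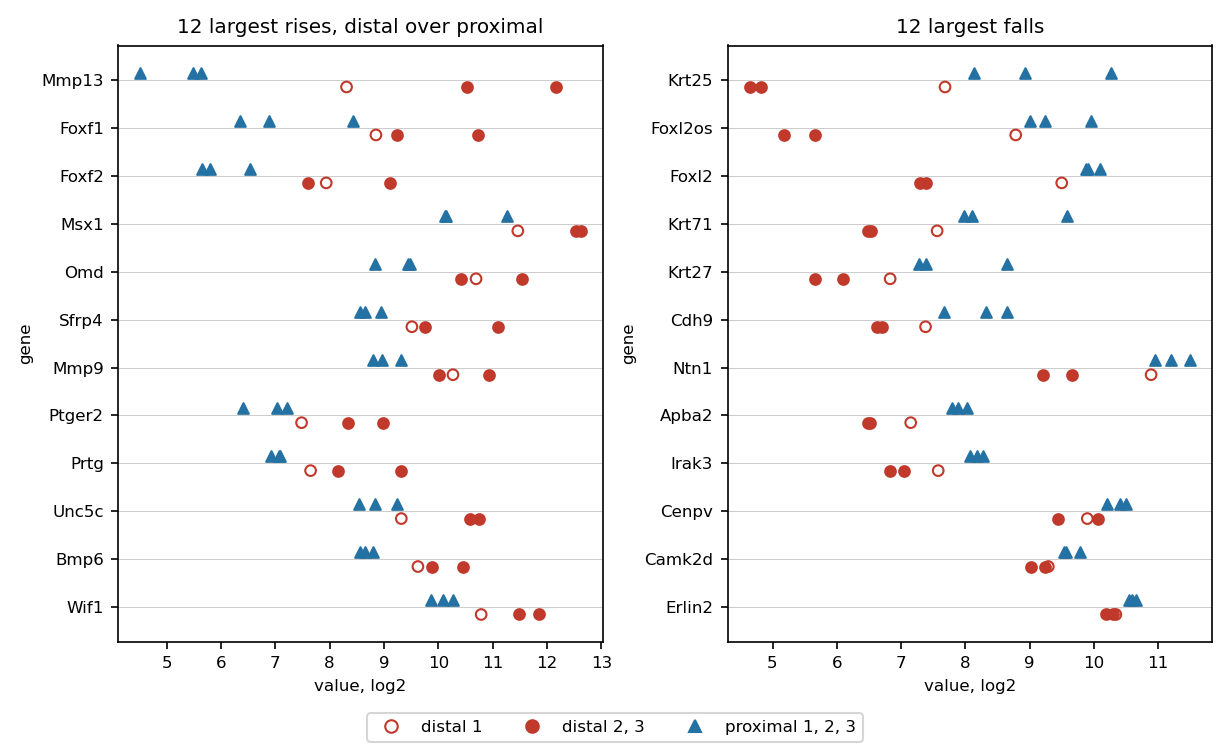
Log2 value of each mutant maxilla array (horizontal axis) for the 12 largest rises (left) and 12 largest falls (right) among the genes called whose ends do not overlap, leaving out genes with only a clone name, with circles for distal arrays, the open circle for distal array 1, and triangles for proximal arrays. In most genes the open circle lies between the other distal arrays and the proximal arrays, as in Msx1 (11.46) and Foxl2 (9.50).

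In the BMP pathway 2 of 19 tested genes rose and none fell (list median 0.18). Bmp6, a ligand, read 9.62, 9.89 and 10.46 in the distal and 8.56, 8.80 and 8.65 in the proximal arrays (1.32 ± 0.22, adjusted p = 0.0237). Bambi, a pseudoreceptor that dampens BMP and TGF-beta signalling, read 10.30, 11.27 and 11.40 against 9.63, 9.79 and 10.08 (1.15 ± 0.21, adjusted p = 0.024). Neither overlapped between the ends. Bmp4, a ligand of distal jaw mesenchyme and epithelium, differed by 0.96 ± 0.27 (adjusted p = 0.145), and the feedback inhibitor Smad6 by 0.52 ± 0.14 (adjusted p = 0.128). Without distal array 1, 8 of the 19 passed and all 8 rose.

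In the Wnt pathway 2 of 33 tested genes rose and none fell (list median 0.16), and both encode secreted inhibitors. Wif1 read 10.79, 11.49 and 11.85 in the distal and 10.27, 10.09 and 9.87 in the proximal arrays (1.30 ± 0.23, adjusted p = 0.024). Sfrp4 read 9.51, 9.75 and 11.09 against 8.65, 8.95 and 8.56 (1.40 ± 0.29, adjusted p = 0.0382). Distal array 3 was highest for both genes. Wnt5a, a ligand of distal outgrowth, read 11.38, 12.86 and 12.61 against 11.39, 11.66 and 11.46, with distal array 1 just below the lowest proximal array (0.78 ± 0.35, adjusted p = 0.412). Of 20 tested TGF-beta ligands, receptors and Smads, none passed with all arrays, and the list median was 0.05. Inhba, which encodes an activin subunit, differed by 0.83 ± 0.28 (adjusted p = 0.216), and the co-receptor Tgfbr3 by -0.67 ± 0.23 (adjusted p = 0.22). Without distal array 1, Inhba (1.07, adjusted p = 0.0294) and Smad7 (0.47, adjusted p = 0.013) rose and Tgfbr3 fell by 1.02 (adjusted p = 0.0016).

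Prostaglandin receptors and guidance genes were among the other genes called. Ptger2, a receptor for prostaglandin E2, read 7.48, 8.33 and 8.98 in the distal and 6.40, 7.03 and 7.22 in the proximal arrays (1.38 ± 0.29, adjusted p = 0.0435). Ptgfr, the prostaglandin F receptor, read 8.66, 8.84 and 9.07 against 7.67, 7.92 and 7.73, and was named after its values were seen because it had the smallest adjusted p (1.09 ± 0.14, adjusted p = 0.00293). Its arrays were close to one another within each end, and the ends did not overlap. Crispld2, a secreted protein gene associated with orofacial clefts, was next (1.08 ± 0.15, adjusted p = 0.00423), named for the same reason. Unc5c, a receptor for netrins, read 9.32, 10.75 and 10.58 against 8.54, 8.84 and 9.24 (1.34 ± 0.26, adjusted p = 0.03). Its ligand gene Ntn1, which encodes netrin-1, went the other way, at 10.89, 9.67 and 9.20 against 11.50, 11.21 and 10.96 (-1.30 ± 0.28, adjusted p = 0.0495). Distal array 1 was only just below the lowest proximal array for Ntn1, and a probe set near background gave -0.55. Prtg, which encodes the immunoglobulin-family receptor protogenin, read 7.65, 8.16 and 9.31 against 7.08, 7.08 and 6.92 (1.35 ± 0.27, adjusted p = 0.0334). Tnc, a matrix protein of tendon and perichondrium, was the 1 riser of 18 tested tendon genes (1.07 ± 0.23, adjusted p = 0.0495).

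The largest fall was in Krt25, a keratin of the inner root sheath of the hair follicle. It read 7.68, 4.82 and 4.64 in the distal and 8.13, 10.26 and 8.93 in the proximal arrays. Distal arrays 2 and 3 were close to background and proximal array 2 was highest. The difference was -3.39 ± 0.64 (adjusted p = 0.024), and -4.38 without distal array 1. No fold is given, since the dim end lay near background. Krt27 and Krt71, also inner root sheath keratins, read 6.83, 6.10 and 5.65 against 7.27, 8.65 and 7.39, and 7.56, 6.54 and 6.48 against 7.97, 9.59 and 8.10. They fell by 1.58 ± 0.31 (adjusted p = 0.03) and by 1.69 ± 0.35 (adjusted p = 0.0444). Tchh, which encodes trichohyalin of the same sheath, read 6.87, 4.56 and 4.50 against 7.46, 8.21 and 6.91, without overlap, and missed the threshold (-2.22 ± 0.51, adjusted p = 0.0719).

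The 3 keratins were the only ones of 19 tested hair and vibrissa follicle genes that passed with all arrays, and the list median was 0.14. Krt73, a further inner root sheath keratin, overlapped between the ends (-0.77 ± 0.47, adjusted p = 0.65). Genes of the follicle bud and placode did not share 1 direction, and 10 of the 19 differences in the list were positive. Sostdc1 differed by 0.59 ± 0.37 (adjusted p = 0.653), Trps1 by 0.42 ± 0.34 (adjusted p = 0.798) and Edar by 0.19 ± 0.16 (adjusted p = 0.825). Lhx2 differed by -0.89 ± 0.87 (adjusted p = 0.883) and Lef1 by -0.11 ± 0.25 (adjusted p = 0.981). The promoters of the 3 keratins are printed because these genes fell together. They are RefSeq windows on GRCm38.p6, all on the minus strand, at chr11:99322902-99323201 for Krt25, chr11:99351069-99351368 for Krt27 and chr15:101743048-101743347 for Krt71, printed 5′ to 3′ of the gene with the motifs named for Mmp13 in capitals.
Krt25: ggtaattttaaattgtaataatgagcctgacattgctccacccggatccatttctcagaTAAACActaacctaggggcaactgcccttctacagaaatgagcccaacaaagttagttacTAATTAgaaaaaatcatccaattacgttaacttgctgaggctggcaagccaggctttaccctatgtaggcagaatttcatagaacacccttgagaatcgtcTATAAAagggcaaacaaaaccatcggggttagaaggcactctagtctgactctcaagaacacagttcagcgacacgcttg
Krt27: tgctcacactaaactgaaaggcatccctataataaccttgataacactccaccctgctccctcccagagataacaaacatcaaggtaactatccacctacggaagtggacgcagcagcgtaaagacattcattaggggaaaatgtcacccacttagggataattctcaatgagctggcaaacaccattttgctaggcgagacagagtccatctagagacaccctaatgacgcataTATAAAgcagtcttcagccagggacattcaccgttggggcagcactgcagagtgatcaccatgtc
Krt71: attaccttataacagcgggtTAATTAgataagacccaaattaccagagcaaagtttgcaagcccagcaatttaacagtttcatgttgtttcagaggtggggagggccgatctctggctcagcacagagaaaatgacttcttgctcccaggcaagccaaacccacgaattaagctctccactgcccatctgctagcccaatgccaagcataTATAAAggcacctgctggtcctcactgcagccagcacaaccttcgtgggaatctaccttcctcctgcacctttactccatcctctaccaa
All 3 hold the TATA box motif, beginning 30, 15 and 40 bases before the annotated start of Krt25, Krt27 and Krt71. The homeodomain motif is present in the windows of Krt25 and Krt71, and the FOX motif, on the other strand, in that of Krt25. No match to the AP-1 or RUNX motif lies in these 3 windows.

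In the control maxilla these genes were higher at the distal end. Krt25 read 8.28, 6.08 and 7.41 in the control distal and 4.42, 4.44 and 5.24 in the control proximal arrays (2.56 ± 0.64, adjusted p = 0.0202), and Tchh rose by 1.93 (adjusted p = 0.0255). Krt27 and Krt71 differed there by 0.73 (adjusted p = 0.166) and 0.84 (adjusted p = 0.165). The test of the difference between mutant and control end differences called 1 gene of 12811 (0.00781%), Krt25, at -5.95 ± 0.90 (adjusted p = 0.0406), with 1360 genes at an unadjusted p under 0.05. Tchh (-4.15 ± 0.72, adjusted p = 0.108), Krt27 (-2.30 ± 0.44, adjusted p = 0.108) and Krt71 (-2.53 ± 0.50, adjusted p = 0.112) missed the threshold. With the replicate number as a block within each jaw, the same test called 390 genes (3.04%), 114 larger and 276 smaller in the mutant. The adjusted p was then 0.0231 for Krt25, 0.0203 for Tchh, 0.0264 for Krt27 and 0.0429 for Krt71. That block assumes that a number joins both ends, which failed for the mutant maxilla by the rule given below. Its counts and p-values are therefore descriptive. The sheath genes were highest in the mutant proximal and lowest in the control proximal maxilla. The count of 1 became 428 without mutant distal array 1, 652 without mutant proximal array 3 and 37 without control proximal array 3. It was 0 without control distal array 1 or 3, control proximal array 1, mutant distal array 2 or 3, or mutant proximal array 2. It was 2 without control distal array 2 or mutant proximal array 1, and 4 without control proximal array 2.

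**Figure D4:**
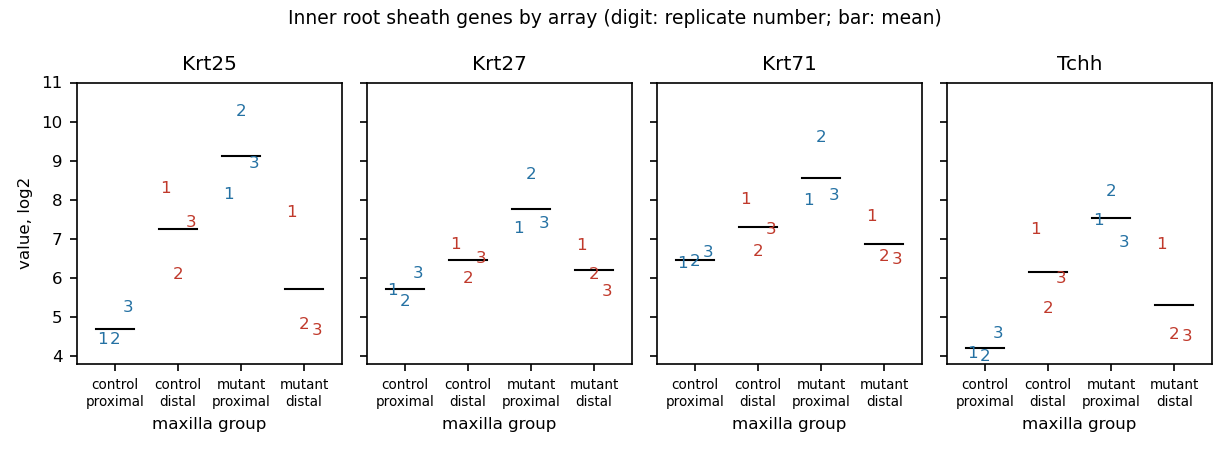
Log2 value (vertical axis) of Krt25, Krt27, Krt71 and Tchh in the 4 maxilla groups (horizontal axis), each digit 1 array by its number and each bar the mean of 3 arrays. Mutant proximal arrays are high (8.13 to 10.26 for Krt25), control proximal arrays low (4.42 to 5.24), and mutant distal 1 lies above the other mutant distal arrays.

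The other genes of smallest p each way in that test passed between the ends of the control maxilla and did not pass in the mutant. Egfl6, which encodes a secreted EGF-repeat protein, read 12.10, 11.94 and 11.40 in the mutant distal and 12.17, 12.21 and 11.63 in the mutant proximal arrays. In the control it read 11.52, 12.17 and 11.81 at the distal and 10.06, 10.80 and 10.60 at the proximal end, so that the control proximal arrays were low and the other 3 groups overlapped. Its end difference was -0.19 in the mutant (adjusted p = 0.898) and 1.35 in the control (adjusted p = 0.00134), and the test of their difference gave -1.54 ± 0.28 (adjusted p = 0.108). Rasef, a gene of a Rab-type GTPase, read 4.06 to 5.23 in the 6 mutant arrays, near background, against 5.32, 4.29 and 5.64 in the control distal and 6.99, 7.58 and 7.17 in the control proximal arrays. The difference between its end differences was 2.02 ± 0.41 (adjusted p = 0.117). For Lyrm9 and Fsd1 it was 0.70 ± 0.14 (adjusted p = 0.119) and 0.48 ± 0.10 (adjusted p = 0.136), and both were lower at the distal end of the control maxilla (-0.77, adjusted p = 0.000819, and -0.33, adjusted p = 0.0126). With the replicate block, whose numbers did not pair the mutant maxilla arrays, all 4 genes passed. The adjusted p-values, which are descriptive, were 0.000245 for Egfl6, 0.0329 for Rasef, 0.0321 for Lyrm9 and 0.0187 for Fsd1.

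Skin keratinocyte genes were set beside this, since follicles belong to skin. The list averaged 0.32, 1.52 and 0.65 in the mutant distal and 0.50, 0.49 and 0.02 in the mutant proximal arrays, and -2.27, -1.96 and -0.15 in the control proximal arrays. Of its 26 tested genes, none passed between the ends of the mutant maxilla (median 0.30), whereas 21 were higher at the distal end of the control maxilla (median 2.28). Krt5, the keratin of basal cells, read 11.54 to 12.63 in the 6 mutant arrays (0.25 ± 0.42, adjusted p = 0.967) and differed by 2.32 in the control (adjusted p = 0.00453). None of the 26 differed between mutant and control end differences by the test above without a block. That test called 1 of all 12811 genes (0.00781%), so the lack of calls does not set this list apart. Values of these genes with the replicate block are not given here. The part of epidermis content in the root sheath result was not tested.

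Foxl2 and its divergent neighbour Foxl2os fell together. Foxl2 is a forkhead gene best known in the ovary and the eyelid mesenchyme. It read 9.50, 7.39 and 7.29 in the distal and 10.10, 9.88 and 9.91 in the proximal arrays (-1.90 ± 0.36, adjusted p = 0.0255). Foxl2os read 8.78, 5.66 and 5.17 against 9.95, 9.0 and 9.25 (-2.86 ± 0.61, adjusted p = 0.0483). Distal array 1 was near the proximal arrays for both, and without it the differences were -2.62 and -3.98. The annotated starts of the pair lie 297 bases apart on opposite strands in RefSeq's GRCm38.p6 annotation. A dim probe set of Foxl2 differed by -0.54.

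The remaining falls were smaller. Cdh9, a cadherin, read 7.38, 6.62 and 6.70 in the distal and 8.64, 8.33 and 7.66 in the proximal arrays (-1.31 ± 0.24, adjusted p = 0.024). Apba2, a neuronal adaptor gene, differed by -1.19 ± 0.21 (adjusted p = 0.024), and Irak3, an inhibitor of Toll-like receptor signalling, by -1.03 ± 0.19 (adjusted p = 0.024). The proximal arrays of Apba2 lay between 7.79 and 8.02 and its distal arrays between 6.48 and 7.15. Cenpv (-0.57 ± 0.12), the kinase gene Camk2d (-0.45 ± 0.08) and Erlin2 (-0.32 ± 0.07), an endoplasmic reticulum protein gene, completed the 12, with adjusted p-values of 0.0483, 0.024 and 0.0435.

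Proximal patterning genes passed the test once distal array 1 was left out, and not with all 6 arrays. Hoxd1 and Barx1 are also genes that set distal array 1 apart above, so their p-values without it are descriptive. Of 24 tested genes of the maxillary and proximal list none passed with all arrays (median -0.44), and 10 fell and none rose without it (median -0.51). Without distal array 1, Hoxd1 fell by 3.95 (adjusted p = 1.95e-05), Tbx18 by 2.94 (adjusted p = 0.000356), Barx1 by 2.74 (adjusted p = 0.000671) and Nr2f1 by 2.08 (adjusted p = 0.000166). With all arrays the same genes gave -2.57 ± 0.73, -2.07 ± 0.55, -1.85 ± 0.56 and -1.46 ± 0.38, with adjusted p-values of 0.145, 0.128, 0.161 and 0.126. Tbx18 read 10.38, 8.80 and 6.77 in the distal and 10.73, 10.85 and 10.58 in the proximal arrays, and Nr2f1, a nuclear receptor gene, read 11.61, 9.70 and 9.75 against 11.98, 11.92 and 11.52. In the control maxilla the list median was 0.15. Barx1 (-1.96, adjusted p = 0.0367), Foxp2 (-1.66, adjusted p = 0.0199) and Tshz2 (-0.64, adjusted p = 0.0148) were lower at its distal end too. Nr2f1, Nr2f2 and Tbx15 were also negative there and did not pass. Hoxd1 (0.67, adjusted p = 0.682), Tbx18 (1.02, adjusted p = 0.302), Irx1 (1.00, adjusted p = 0.169) and Irx2 (1.69, adjusted p = 0.0702) were positive there. The other 6 that fell in the mutant without distal array 1 were Irx1, Irx2, Tbx15, Foxp2, Nr2f2 and Tshz2. The muscle list moved with them: distal array 1 and proximal arrays 1 and 2 were the 3 arrays highest in muscle.

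Muscle genes were lower at the distal end without passing the test. Of 32 tested contractile and excitation genes none passed with all arrays, all 32 differences were negative and the median was -1.88. Without distal array 1, 28 fell and the median was -2.90. Acta1, the skeletal muscle actin, read 12.76, 7.97 and 8.61 in the distal and 13.40, 12.23 and 11.01 in the proximal arrays (-2.43 ± 0.88, adjusted p = 0.252). Myog, a factor that drives muscle differentiation, read 12.15, 8.25 and 8.81 against 12.71, 12.35 and 11.16 (-2.34 ± 0.68, adjusted p = 0.153). Distal array 1 lay within the proximal range for both genes. Pax7, a marker of muscle progenitors that neural crest also expresses, did not share this order, at 7.93, 10.62 and 9.45 against 8.76, 8.47 and 8.87. Genes were also ranked by the smallest of their differences between same-numbered arrays. This is a description, since the numbers did not pair these arrays by the rule given below. Ldb3, Tnnt3, Myh8, Neb, Myf5 and the keratin gene Krt77 ranked as the top 6 falls, and none of them passed with all arrays. By the same measure Mmp13, Msx2, Msx1, Ptger2, Foxf2 and Bmp6 were the top 6 rises.

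Cartilage genes separated arrays rather than ends. None of the 26 tested passed with all arrays (median 1.08), and 7 rose without distal array 1. Col2a1, the collagen of cartilage, read 9.64, 13.18 and 13.06 in the distal and 9.49, 8.82 and 13.15 in the proximal arrays (1.47 ± 1.06, adjusted p = 0.749). Matn1, a cartilage matrix protein, had one of the widest ranges within each end, at 4.97, 10.66 and 10.99 against 5.65, 5.32 and 12.21. Nasal genes did likewise. The other 5 genes of widest range in the distal arrays were Dynap, Hrnr, Fezf1, Tnnc2 and Ttn. Hrnr, which encodes the epidermal protein hornerin, read 4.27, 10.07 and 8.12 in the distal and 4.17 to 4.93 in the proximal arrays. Dynap read 4.89, 10.92 and 9.32 against 4.79 to 5.26. Unlike the nasal list mean, both genes were low in proximal array 3. Between the ends of the control maxilla Hrnr differed by 4.26 (adjusted p = 0.0144) and Dynap by 3.62 (adjusted p = 0.0594). Fezf1, a factor of olfactory development, read 5.35, 11.05 and 9.95 against 5.64, 5.66 and 9.57. Distal array 1 was the low one for all 3 genes, whereas it was the high one for the muscle genes Tnnc2 (11.61, 6.12 and 7.52) and Ttn (10.77, 5.32 and 6.33). None of the 5 passed with all arrays, and all 5 passed without distal array 1. Bpifa1, a secreted protein of nasal and airway epithelium, read 10.35, 11.19 and 12.59 in the distal and 4.55, 4.59 and 13.18 in the proximal arrays. Foxa1 and Otx2, factors of endodermal or nasal epithelium and of the olfactory region, were among the 6 genes of widest range in the proximal arrays, together with Insm1 and Dynlrb2. The defining olfactory gene Omp was at 6.93 to 7.42 in all 6 arrays, near the array medians, the lowest of which was 6.93.

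Melanocyte and macrophage genes also followed distal array 1. None of 7 tested melanocyte genes passed with all arrays (median -0.77) and all 7 fell without that array. Pmel, a pigment granule protein, read 10.54, 9.56 and 7.82 in the distal and 11.28, 11.10 and 10.49 in the proximal arrays (-1.65 ± 0.42, adjusted p = 0.12). None of 19 tested macrophage genes passed (median -0.45), and 11 fell without distal array 1. None of the 18 tested dermis and fibroblast matrix genes passed (median -0.27), and 10 fell without it. Dpt, which encodes dermatopontin, read 11.41, 7.53 and 6.20 against 11.36, 10.93 and 10.10 (-2.42 ± 0.85, adjusted p = 0.242).

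Most of the 49 genes had the same direction in the control maxilla, whose arrays are separate from those that called them. Both contrasts came from 1 fit with the same standard error for a gene, so the calls in them are not independent. The sign was the same for 45 of 49, namely 36 of 37 that rose and 9 of 12 that fell. The share with the same sign over all genes tested was not counted. Of the 49, 19 were also called in the control maxilla in the same direction, against 1079 of all genes called there in either direction (8.42%). These 19 are 38.8% of the mutant list and 1.76% of the control list, and 1, Krt25, was called in the opposite direction. With the replicate block, 2189 genes were called in the control maxilla (17.1%), 26 of the 49 among them in the same direction and 1 in the opposite. Those counts are descriptive, since by Xist number 2 did not join both ends of 1 control sample (12.97 distal, 6.49 proximal). Msx1 gave 1.61 in the control (adjusted p = 0.00669) beside 1.70 in the mutant, Omd 1.33 (adjusted p = 0.00579) beside 1.64, and Wif1 1.20 (adjusted p = 0.00607) beside 1.30. Mmp13 gave 2.42 in the control (adjusted p = 0.0989) beside 5.12, and the test of that difference gave 2.70 ± 1.24 (adjusted p = 0.446). Tnfrsf11b gave 0.01 in the control (adjusted p = 0.991) beside 1.60.

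**Figure D5:**
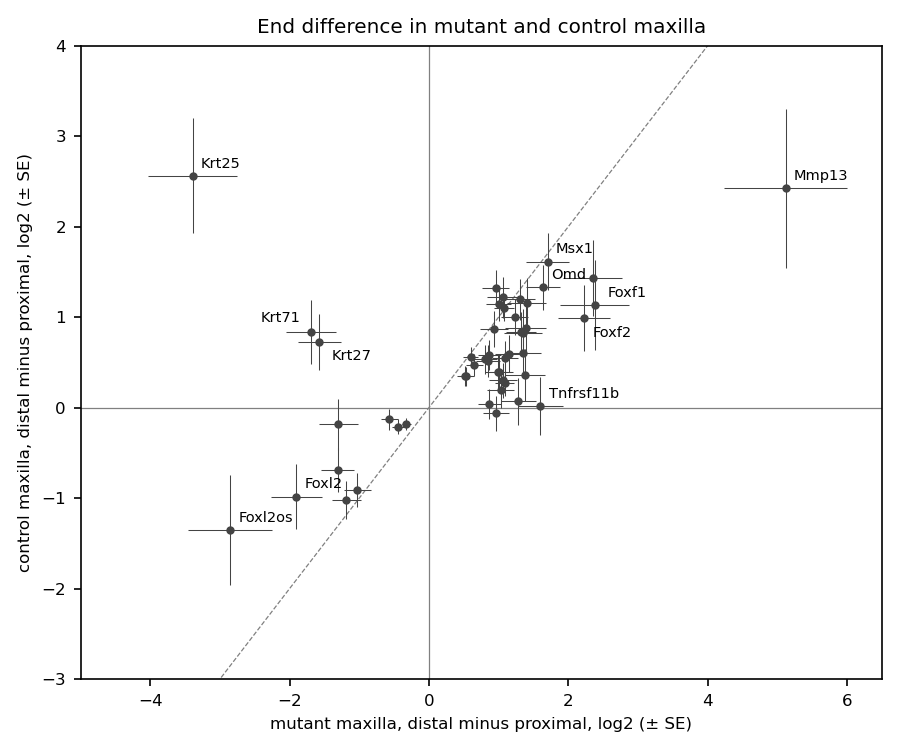
Distal minus proximal difference in the mutant maxilla (horizontal axis, log2) against that in the control maxilla (vertical axis, log2) for the 49 genes called in the mutant, with standard errors and the line of equal differences dashed. Krt25 lies at -3.39 and 2.56, while 45 of the 49 have the same sign in both.

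The mutant mandible ran differently. Its ends differed in 3468 genes (27.1%), and of the 49 maxilla genes 7 were called there in the same and 17 in the opposite direction. The replicate block raised that count to 5431 (42.4%), with 8 and 17 of the 49. The end difference of the maxilla differed from that of the mandible in 1325 genes (10.3%), 682 larger in the maxilla and 643 smaller. The count was 2857 (22.3%) with the replicate block, whose numbers did not pair the mutant maxilla arrays. Without the block the end differences of the jaws differed in 35 of the 49, a count that shares the maxilla arrays with the contrast that chose them. Mmp13 had the largest positive value, 6.6 ± 1.24 (adjusted p = 0.00227), with a mandible difference of -1.48. The genes of mineralised tissue Dmp1 (5.24 ± 0.77, adjusted p = 0.000252) and Phex (4.35 ± 0.75, adjusted p = 0.00114) followed the same direction, and their mandible differences were -3.64 and -4.08. Omd fell by 1.53 from proximal to distal mandible (adjusted p = 0.00025) and rose by 1.64 in the maxilla. Isl1, a LIM-homeobox gene of the distal mandibular arch, gave -4.16 ± 0.63 (adjusted p = 0.000353), with 5.05 in the mandible beside 0.89 in the maxilla. Removing single arrays left this count between 863 and 1430, and it was 863 without mutant mandible distal array 3.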

How the data were processed

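The values deposited are on a log2 scale, 1 per probe set for each of 24 Affymetrix mouse arrays. Per the labels' protocols, RNA was extracted with Qiagen RNeasy kits and 5 µg per sample was labelled. Per the submitters' processing notes, the authors used RMA and Partek 6.6 (settings: not given in the sources used here). The deposited values were read as log2 because they ran from 3.44 to 14.83. RMA makes arrays alike in distribution, so a change shared by most genes would not show, and compresses dim values.

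Of 45101 probe sets, 34958 had 1 gene symbol in the platform annotation, 932 several and 9211 none. The 64 array controls were left out. The probe set with the highest mean stood for each of 18193 genes. Genes above the array median in at least 3 arrays were tested, 12811 in all.

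Differences were tested in R 4.3.3 with limma 3.58.1 (lmFit, eBayes, two-sided, Benjamini-Hochberg, threshold 0.05), with all 24 arrays in 8 groups and 16 residual degrees of freedom. The fit was also run on simulated data that gave a gene the same spread in every group. That run therefore does not check calls in the mutant maxilla, whose groups scattered more than the others. The median standard error was 0.106, and precision is limited by the number of arrays.

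The text names the 12 strongest rises and 12 strongest falls among called genes whose ends do not overlap. It names the 6 genes each way whose smallest difference over numbered pairs was largest. For the interactions it names the 6 largest each way for the mandible and the 3 of smallest p each way for the control. The 6 of widest range per end, up to 4 members a list, defining markers and Tgfbr2 are also named. Sex-linked genes and genes with only clone names were skipped. The 34 lists (618 of 727 entries tested), like the comparison itself, were chosen with earlier results of these data known, and no test was run on a list as a whole. Alternatives were other filters, probe set rules, normalizations, array weights, blocks, covariates, subsets of arrays and each array left out. Promoter windows came from RefSeq (GRCm38.p6), which held 38 of the 49 genes called.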

Additional observations from a re-analysis of the deposited data

Results flagged for a closer look

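These results were flagged because an effect between ends differed between 2 sets of arrays by a test of the difference itself. Groups of 3 arrays were too small for the test for single outlying arrays.

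Between mutant and control maxilla, 1 gene differed in its distal minus proximal difference. It was Krt25, at -5.95. By replicate number its mutant differences were -0.45, -5.44 and -4.28 for arrays 1, 2 and 3. Any pairing gives negative values, because the mutant ends did not overlap, so the signs add nothing to the test.

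Between mutant maxilla and mutant mandible, 1325 genes differed. The end difference was larger in the maxilla by 6.6 for Mmp13, 5.24 for Dmp1, 4.72 for Col22a1 (a collagen of tissue junctions), 4.36 for Col11a2 (a cartilage collagen), 4.35 for Phex and 4.15 for Cgref1. It was smaller in the maxilla, at -4.37 for Them5, -4.31 for Arg1 (arginase), -4.28 for Serpinb12, -4.16 for Isl1, -4.05 for Capns2 and -4.01 for Qrfpr. Of these 12 genes, Mmp13 was the only one called between the ends of the mutant maxilla with all 6 arrays, and the mandible difference alone was called for all the others. Qrfpr, at 4.05 to 5.05 in the maxilla arrays, was near background there.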

How the results depend on the processing

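The count of genes called between the ends of the mutant maxilla, 49, stayed within 1.5 times under 7 settings (no filter, a filter of 6 arrays, the mean or the most variable probe set, quantile normalization, median centring, trend and robust eBayes; 37 to 54). It was 0 on the 6 mutant maxilla arrays, 1 on the 12 maxilla arrays, 2206 with array weights, 19 with nasal and muscle list means as covariates (7 higher, 12 lower), 236 without the 3 arrays low in nasal markers, and 30 with nasal marker level as a block, a setting chosen after seeing the data. Of the 49, 24 were called with that block. All 49 kept their sign in these last 2 settings, but this was fixed in advance. For 48 the ends did not overlap, and for Tnfrsf11b the distal arrays exceeded the proximal arrays within each nasal level. Without the 3 low arrays only proximal array 3 remained at its end, so counts from that setting are descriptive. Leaving out 1 array gave 2 to 1122. The 1 gene differing between mutant and control became 0 on the 12 maxilla arrays, with quantile normalization and with covariates, 5 without a filter, 2414 with array weights and 38 without the 3 low arrays, and 0 to 652 with 1 array left out. The 1325 genes differing from the mandible became 584 on the 12 mutant arrays, 2813 with weights and 2672 with covariates, and 863 to 1430 with 1 array left out. The cause was not tested, beyond the fewer arrays in the subsets. No named gene reversed a call. Of the 24 genes with the strongest rises and falls, calls were lost under 3 (Omd) to 14 (Mmp9) of 20 or 21 settings, and Krt25 lost its interaction call under 10 of 25. Of the 12 genes differing from the mandible, Them5 lost its call under 5 settings and Col11a2 and Serpinb12 under 1 each. Replicate numbers did not pair the mutant maxilla arrays by the rule that all 3 correlations of deviations exceed 0.1 (0.69, -0.09 and 0.63), and array 2 correlated better with another number (0.35). The other 3 jaws met that rule. Their correlations were 0.11 to 0.50 in the control maxilla, 0.46 to 0.54 in the control mandible and 0.35 to 0.44 in the mutant mandible. By Xist, though, number 2 of the control maxilla did not join both ends of 1 sample (12.97 distal, 6.49 proximal). Block fits for the maxilla arrays are therefore descriptive. With the number as a replicate block within each jaw the 3 counts were 520 (199 higher, 321 lower), 390 and 2857, and with the number over all arrays 83, 0 and 2430.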

Other observations

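Proliferation and general stress lists gave no calls between the ends of the mutant maxilla with all 6 arrays, though each leaned 1 way. Differences were positive in 3 of 28 cell cycle genes and 19 of 21 hypoxia and glycolysis genes, against 6522 of 12811 genes tested. None of 28 tested cell cycle genes passed with all 6 arrays (median -0.06) or rose without distal array 1, where 2 fell. Of 21 tested hypoxia and glycolysis genes none passed (median 0.19), and 4 rose and 1 fell without that array. None of 19 tested endothelial genes passed (median -0.02), and 3 fell without it. None of 6 tested erythroid genes passed in either setting (median 0.14).

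The nerve-associated lists were uneven. None of 13 tested Schwann cell and glia genes passed with all arrays (median -0.24), and 5 fell without distal array 1. Nrn1, which encodes neuritin, read 9.36, 6.97 and 6.61 in the distal and 9.43, 9.28 and 8.39 in the proximal arrays (-1.39 ± 0.51, adjusted p = 0.268). The list of neurogenic factors and neurons averaged 1.61 in proximal array 3 and -0.61 to 0.20 in the other 5 arrays, against 0.19 to 2.34 in the control maxilla.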
